A study of Mus musculus with 7 samples.

Results

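The 10 antioxidant and metallothionein genes described here were Hmox1, Nqo1, Gclc, Gclm, Txnrd1, Srxn1, Sod2, Gpx1, Mt1 and Mt2, compared between recipient muscle cells given EXO-Post Palm and those given EXO-Post BSA. They were chosen by name and not ranked by their level, but with earlier results of these data known. Every non-control probe that the array files name for one of them was taken. This gave 11 probes of the 39429 non-control probes on the array, which carry 31829 gene names. Hmox1 was covered by 2 probes and each of the other genes by 1.

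C2C12 is a mouse skeletal muscle line whose myoblasts fuse into myotubes when serum is withdrawn. Donor C2C12 cultures had been loaded with 0.5 mmol/l palmitate bound to BSA (Palm) or given BSA without the fatty acid, and exosomes, the small vesicles that cells shed, were collected after that treatment ended (EXO-Post Palm and EXO-Post BSA). Recipient C2C12 cells were incubated with one or the other preparation for 24 h, and their RNA was hybridised to 1-colour Agilent mouse arrays, with 4 arrays for EXO-Post BSA and 3 for EXO-Post Palm. Both groups therefore received exosomes and no array of cells without exosomes was analysed here. The methods name C2C12, an immortalised line, for all cells, and the cell line label counts upward from C2C12 by 1 per sample, which was read as the same line. The sample labels call the recipient cells myoblasts and the methods call them myotubes, and nothing in the labels says whether the arrays of a group came from separate cultures, so p-values measure the spread between these samples, which may be technical.

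Cells exposed to oxidants or electrophiles release the transcription factor NRF2 from its inhibitor KEAP1, and NRF2 then switches on genes through antioxidant response elements, among them Hmox1, Nqo1, Gclc, Gclm, Txnrd1 and Srxn1. Metallothioneins are small cysteine-rich proteins that bind zinc and copper, and their genes are switched on through metal response elements by the zinc sensor MTF1 and also by glucocorticoids and oxidants. Skeletal muscle makes superoxide and peroxide as it respires and contracts, and manganese superoxide dismutase and glutathione peroxidase remove them.

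The upstream sequences of the metallothionein pair are shown because their differences were among the larger ones. Within the windows searched, Mt2 also held the most metal response element cores of the members matched. Both are from RefSeq, build GRCm38.p6, plus strand, 250 bases ending at the base before the annotated start, at chr8:94178839-94179088 for Mt1 and chr8:94172368-94172617 for Mt2. Capitals mark matches to the metal response element core, searched as TGCACNC or TGCGCNC on both strands. A match is a description of the letters and not a shown binding site.
Mt1: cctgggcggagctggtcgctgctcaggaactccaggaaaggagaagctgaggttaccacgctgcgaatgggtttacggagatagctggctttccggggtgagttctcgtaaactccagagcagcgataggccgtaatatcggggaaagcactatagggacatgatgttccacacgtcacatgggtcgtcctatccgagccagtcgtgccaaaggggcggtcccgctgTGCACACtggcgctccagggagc
Mt2: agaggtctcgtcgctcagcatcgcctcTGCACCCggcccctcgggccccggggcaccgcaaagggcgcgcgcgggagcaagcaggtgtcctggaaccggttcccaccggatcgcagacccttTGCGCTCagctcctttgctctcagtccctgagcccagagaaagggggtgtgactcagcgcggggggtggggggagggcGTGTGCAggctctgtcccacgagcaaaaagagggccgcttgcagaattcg
Mt2 held 3 such matches, starting 223, 128 and 50 bases before the start, and Mt1 held 1, at 23 bases. Of 32851 promoters of the same length, 21.4% held at least 1 match and 1.26% held 3 or more. Promoters of 8 of the 10 members, in 10 windows because Txnrd1 has 3 annotated starts, were matched by symbol; Hmox1 and Gclc were not. Gclm held 2 matches, at 138 and 72 bases before the start, and Srxn1 held 1, at 19 bases. The antioxidant response element core, searched as TGACNNNGC on both strands, was found in 3 members, in Gclm at 134 bases, in Mt2 at 79 bases and in front of 1 of the Txnrd1 starts at 92 bases. It occurred in 10.2% of all promoters of that length. Sequence further upstream, or past the annotated start, was not searched, so a member without a match here may still hold such an element. A member with matches may hold more, and the counts for Mt1 and Mt2 compare only these windows. The Mt2 match reads TGACTCAGC and so also contains the AP-1 motif TGACTCA, and the Gclm match overlapped a metal response element match.

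Values are log2 processed signal with 0 set at the 75th percentile of each array, so 1 unit is a 2-fold difference in signal, and they compare arrays within a probe, not probes with each other. The 75th percentile signal ran from 549 to 1621 intensity units and 48.5 to 70.3% of probes were well above background per array, with no saturated spot. All 11 member probes were well above background on all 7 arrays. The exact permutation test quoted for single probes runs over all 35 assignments of the arrays to groups of 4 and 3 and is two-sided, and its smallest possible p is 0.0286. The numbers of arrays per group limit the precision.

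Across the members, signal lay higher with EXO-Post Palm for 9 of 11 probes and lower for those of Gclc and Gclm. Mt2 and Nqo1 had the widest differences, each 2.07-fold higher, followed by Mt1, Srxn1 and Sod2 at 1.60-fold, 1.47-fold and 1.42-fold. None of the 11 probes passed an adjusted p of 0.05 in limma over the 21589 tested probes, where 115 probes, or 0.533%, did. In simulated data, 7 of 100 probes changed by 1 log2 unit passed, so a miss at that size does not show that there was no change. At an unadjusted p of 0.05 in limma, 4 of 11 member probes were higher (Mt2, Nqo1, Sod2 and Srxn1) against 4.85% of all tested probes, and 0 of 11 were lower against 5.19%. The share in either direction was 36.4% for the members and 10.0% for all tested probes. Nqo1 and Mt2 were in this unadjusted count under each of the 20 alternatives, while the other members in it varied. The count was 2 without EXO-Post BSA replicate 2, without EXO-Post Palm replicate 3, with scaling to the median or with no filter. With slide as a fixed block it was 3 higher, Nqo1, Mt1 and Mt2, and 1 lower, Gclc at an unadjusted p of 0.012, while Srxn1 and Sod2 had unadjusted p of 0.0528 and 0.106 in that limma fit. The 2 groups did not overlap, with all 3 EXO-Post Palm arrays above all 4 EXO-Post BSA arrays, for 4 of 11 member probes (Mt2, Nqo1, Sod2 and the A_55_P2029687 probe of Hmox1), against 5.40% of all tested probes. The median log2 difference was 0.28 over the member probes and 0.40 over the brightest probe of each gene, beside -0.02 over all tested probes, of which 47.3% were positive. The genes were listed with earlier results of these data known, so these counts describe the list and do not test it.

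**Figure D1:**
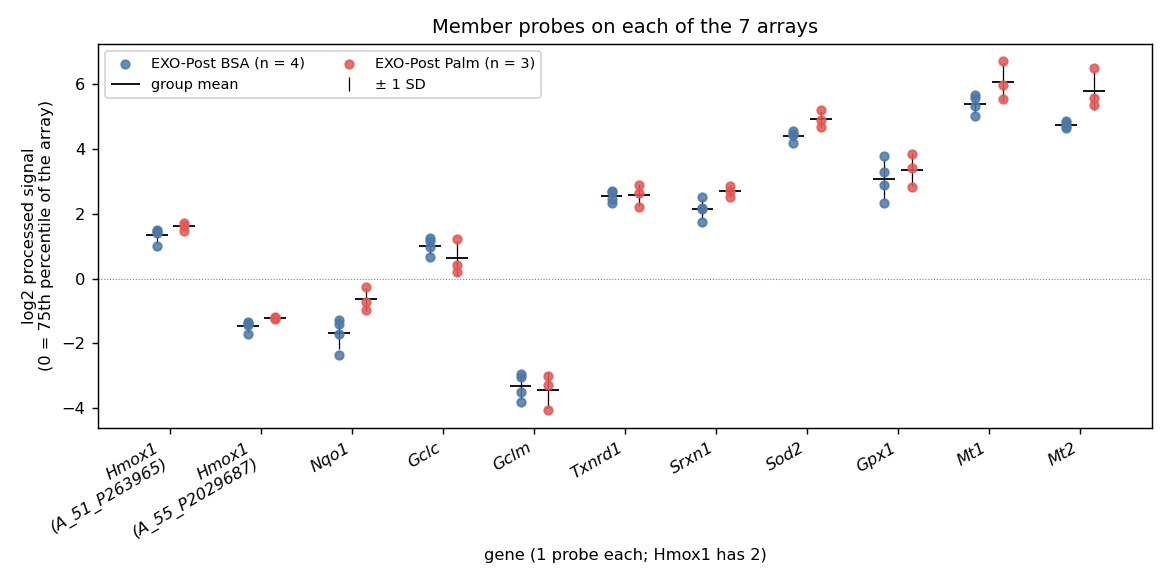
Log2 processed signal of the 11 member probes (y axis, 0 = 75th percentile of the array) on each array, by gene (x axis). Points are arrays, blue for EXO-Post BSA (n = 4) and red for EXO-Post Palm (n = 3), with the group mean as a bar and 1 SD as a line. All 3 red points lie above all blue points for Mt2, Nqo1, Sod2 and the dimmer Hmox1 probe, and the highest Mt1 and Mt2 points, at 6.70 and 6.48, are both EXO-Post Palm replicate 3.

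Other features of the RNA moved with the groups. Of 9 tested markers of dividing cells, all had the higher signal after EXO-Post Palm and 7 rose at an adjusted p of 0.05 in limma, with a median log2 difference of 2.36. All 9 had an unadjusted p under 0.05 in every alternative, but fewer passed the adjusted threshold with 1 array left out. Leaving out EXO-Post Palm replicate 1 left 0 and leaving out replicate 3 left 1, the number was 3 without any one of the first 3 EXO-Post BSA arrays and 4 without the last, and it was 0 with the replicate block, with no filter and by the methods' t-test. Their summed linear signal, in multiples of the array's 75th percentile, was 4.18 to 4.81 on the EXO-Post BSA arrays. On EXO-Post Palm replicates 1, 2 and 3 it was 19.7, 13.8 and 33.9. EXO-Post Palm replicate 3 was thus the highest of the 7 arrays here, as for 7 of the 11 member probes. The share of all tested probes highest on that array was not computed, so the count cannot be read as particular to the members. The 75th percentile of that array, by which its signals were scaled, was the lowest of the 7 at 549 intensity units. Of 12 myotube markers 2 were higher and 10 lower, none passed the adjusted threshold, and the summed signal of the 11 with a value on all arrays was 987, 1100, 898 and 1035 with EXO-Post BSA and 794, 912 and 852 with EXO-Post Palm. All 12 myotube markers were bright enough to be tested, while of 6 myoblast markers Myf5 and Msc were not and the summed signal of the list was 6.30 to 9.14 and 6.68 to 8.72. Markers of leukocytes (2 of 6 tested), endothelium (2 of 4), adipocytes (0 of 4) and epithelium (1 of 4) were mostly too dim to be tested, and none passed. In RNA of whole cultures, more cells of a type and more RNA per cell cannot be told apart. The part of the dividing-cell difference in the member values was not tested.

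The metallothioneins Mt1 and Mt2 are neighbouring genes on chromosome 8 that encode the widely expressed zinc-binding forms. The Mt2 probe (A_51_P246317, mm9 chr8:96697371-96697430) read 4.87, 4.71, 4.80 and 4.63 with EXO-Post BSA and 5.35, 5.57 and 6.48 with EXO-Post Palm, each in the order of the replicate numbers, as for every probe that follows. The lowest EXO-Post Palm array stood 0.49 above the highest EXO-Post BSA array. The EXO-Post BSA arrays lay close together while EXO-Post Palm replicate 3 lay well above its own group. The means were 4.75 ± 0.10 (SD, n = 4) and 5.80 ± 0.60 (SD, n = 3), a log2 difference of 1.05 with SE 0.29 and a 95% interval of 0.40 to 1.70. In limma the unadjusted p was 0.00546 and the adjusted p 0.228, and the exact permutation p was 0.0286. Without EXO-Post Palm replicate 3 the log2 difference was 0.71. Mt2 was the single member to pass under any alternative: with normexp background correction of the median signals its log2 difference was 1.40 and its adjusted p 0.0414, within a range of 0.0414 to 0.747 over 20 alternatives.

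The Mt1 probe (A_66_P111660, mm9 chr8:96704165-96704224) read 5.32, 5.00, 5.65 and 5.57 with EXO-Post BSA and 5.55, 5.96 and 6.70 with EXO-Post Palm. EXO-Post Palm replicate 1 fell among the EXO-Post BSA arrays and the other 2 lay above them. From 5.39 ± 0.29 (SD, n = 4) to 6.07 ± 0.58 (SD, n = 3), the log2 difference was 0.68 with SE 0.31 and a 95% interval of -0.01 to 1.38, at an adjusted p of 0.51 in limma and an exact permutation p of 0.0857. Leaving out EXO-Post Palm replicate 3 gave 0.37. The Mt1 and Mt2 probes, both 60 bases, share no run longer than 7 bases, so the 2 genes were read by unlike sequences. Their 3 EXO-Post Palm arrays stood in the same order, as did those of Sod2 and the brighter Hmox1 probe. The EXO-Post BSA arrays stood in different orders for Mt1 and Mt2.

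Nqo1 encodes a quinone reductase that spares cells the radicals of quinone cycling, and Hmox1 encodes haem oxygenase, which breaks down haem to biliverdin, carbon monoxide and iron. The Nqo1 probe (A_51_P424338, mm9 chr8:109912440-109912499, minus strand) read -2.35, -1.41, -1.29 and -1.71 with EXO-Post BSA and -0.71, -0.96 and -0.27 with EXO-Post Palm. Every EXO-Post Palm array was above every EXO-Post BSA array, with a gap of 0.33, and EXO-Post BSA replicate 1 was the lowest. The mean went from -1.69 ± 0.48 (SD, n = 4) to -0.64 ± 0.35 (SD, n = 3), a log2 difference of 1.05 with SE 0.31 and a 95% interval of 0.35 to 1.74. The unadjusted p was 0.00797 and the adjusted p 0.271 in limma, with an exact permutation p of 0.0286. Unlike Mt2, the Nqo1 difference was of similar size within both slides that held the 2 groups, 1.17 on one and 1.44 on the other, and it ran from 0.79 to 1.29 over the 20 alternatives, with adjusted p from 0.163 to 0.826.

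The brighter Hmox1 probe (A_51_P263965, mm9 chr8:77624207-77624266) read 1.41, 1.00, 1.51 and 1.46 with EXO-Post BSA and 1.48, 1.64 and 1.71 with EXO-Post Palm. The dimmer one (A_55_P2029687, mm9 chr8:77620797-77620856), which lies 5′ of it on the plus strand, read -1.71, -1.43, -1.33 and -1.36 against -1.23, -1.18 and -1.22. The groups overlapped on the first probe and were separated by 0.10 on the second, where the EXO-Post Palm arrays were nearly alike. Both probes gave a similar small difference, 0.26 (SE 0.21, 95% interval -0.22 to 0.74) and 0.25 (SE 0.19, 95% interval -0.19 to 0.69), or 1.20-fold and 1.19-fold, with adjusted p of 0.718 and 0.708 in limma and exact permutation p of 0.143 and 0.0571. The upper interval ends leave a rise of up to 1.67-fold or 1.61-fold within reach of these arrays.

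Gclc and Gclm encode the catalytic and the modifier subunit of glutamate cysteine ligase, the rate-limiting enzyme of glutathione synthesis. These were the 2 members with a negative difference. The Gclc probe (A_51_P365019, mm9 chr9:77641296-77641355) read 1.15, 0.98, 0.66 and 1.25 with EXO-Post BSA and 0.20, 1.24 and 0.42 with EXO-Post Palm. EXO-Post Palm replicates 1 and 3 were the lowest of the 7 arrays and replicate 2 was among the highest. The log2 difference was -0.39 with SE 0.29 and a 95% interval of -1.05 to 0.27, at an adjusted p of 0.693 in limma and an exact permutation p of 0.257. Within the slides it was -0.86 and -0.83, with slide as a fixed block -0.85 at an adjusted p of 0.322, and without EXO-Post Palm replicate 2, which had a slide without EXO-Post BSA, -0.70. The Gclm probe (A_51_P320089, mm9 chr3:121962174-121964809, a span of 2636 bases that exceeds the probe length) read -3.49, -2.93, -3.80 and -3.05 against -3.00, -4.06 and -3.28. Its groups overlapped, with EXO-Post Palm replicate 2 the lowest and EXO-Post BSA replicate 2 the highest array, and the log2 difference of -0.13 (SE 0.32, 95% interval -0.86 to 0.61, adjusted p 0.924 in limma, exact permutation p 0.743) turned positive in 4 of 20 alternatives.

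Txnrd1 encodes the cytosolic thioredoxin reductase and Srxn1 encodes sulfiredoxin, which reduces over-oxidised peroxiredoxins. The Srxn1 probe (A_55_P2033120, mm9 chr2:151937009-151937068) read 2.51, 2.15, 2.16 and 1.74 with EXO-Post BSA and 2.71, 2.51 and 2.87 with EXO-Post Palm. The first EXO-Post BSA array and EXO-Post Palm replicate 2 met at the edge, with the other arrays of the groups apart. The log2 difference was 0.55 (SE 0.24, 95% interval 0.02 to 1.09), the unadjusted p 0.0447 and the adjusted p 0.485 in limma, and the exact permutation p 0.0857. The Txnrd1 probe (A_51_P320614, mm9 chr10:82360230-82360289) read 2.46, 2.71, 2.34 and 2.69 against 2.65, 2.20 and 2.89. Here EXO-Post Palm held both the lowest and the highest array, and the log2 difference was 0.03 (SE 0.23, 95% interval -0.49 to 0.56, adjusted p 0.974 in limma, exact permutation p 0.886), with the sign turned under scaling to the array median, where it was -0.03.

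Sod2 encodes the mitochondrial manganese superoxide dismutase and Gpx1 the main cytosolic glutathione peroxidase, a selenoprotein. The Sod2 probe (A_51_P172573, mm9 chr17:13208074-13208133) read 4.18, 4.43, 4.46 and 4.54 with EXO-Post BSA and 4.67, 4.88 and 5.20 with EXO-Post Palm. The groups did not overlap and were 0.12 apart, with EXO-Post BSA replicate 4 and EXO-Post Palm replicate 1 the nearest arrays. The means were 4.40 ± 0.16 (SD, n = 4) and 4.91 ± 0.27 (SD, n = 3), a log2 difference of 0.51 (SE 0.21, 95% interval 0.02 to 1.00) with an unadjusted p of 0.0415 and an adjusted p of 0.479 in limma and an exact permutation p of 0.0286. With normexp it was 0.17 and in the authors' processed values 0.27. The Gpx1 probe (A_52_P684378, mm9 chr9:108242276-108242335) read 3.30, 2.90, 3.77 and 2.32 against 2.82, 3.85 and 3.41. Gpx1 was the most variable member within EXO-Post BSA, with an SD of 0.62, and its log2 difference of 0.28 (SE 0.38, 95% interval -0.58 to 1.14, adjusted p 0.839 in limma, exact permutation p 0.571) was 0.03 without EXO-Post BSA replicate 4.

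The 7 arrays lay on 4 slides, and both groups were present on slide 1 (first and second EXO-Post BSA array, first EXO-Post Palm array) and on slide 3 (EXO-Post BSA replicate 4 beside the last EXO-Post Palm array). Differences within these slides were positive for 9 member probes on slide 1 and for 9 on slide 3, and for 8 on both. The shares of all tested probes with these signs were not computed, so the counts cannot be read as particular to the members. Mt2 was 0.56 higher on slide 1 and 1.85 higher on slide 3, and Mt1 0.38 and 1.13. Srxn1 gave 0.37 and 1.13, Sod2 0.36 and 0.65, and the 2 Hmox1 probes 0.27 and 0.34 on slide 1 against 0.25 and 0.14 on slide 3. Gpx1 had opposite signs, -0.28 and 1.09, as did Gclm with 0.21 and -0.23, while Txnrd1 gave 0.06 and 0.21. With 1 EXO-Post Palm array on each of these slides, the within-slide values carry no test.

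**Figure D2:**
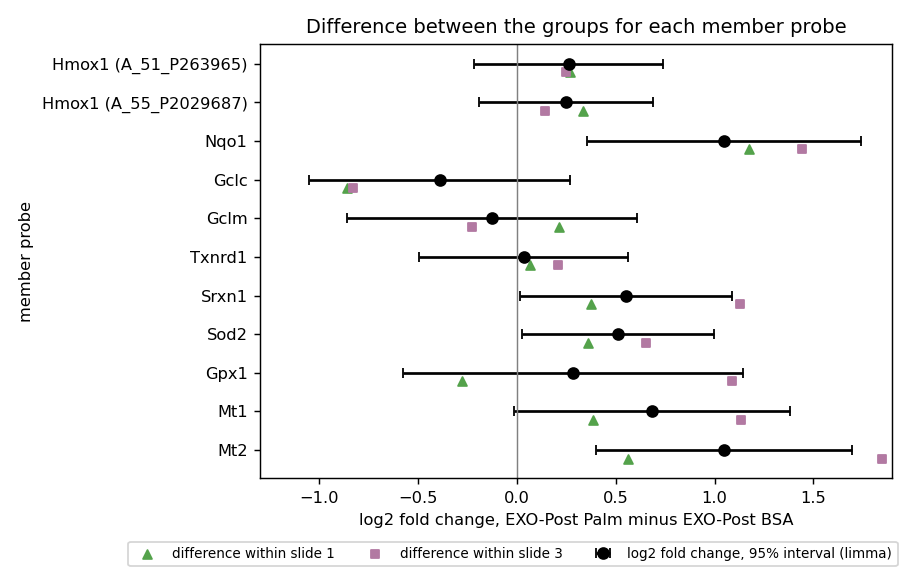
Log2 fold change, EXO-Post Palm minus EXO-Post BSA (x axis), for each member probe (y axis). Black points and bars are the limma estimate over 4 and 3 arrays and its 95% interval, green triangles the difference within slide 1 and purple squares that within slide 3. The intervals of Mt2, Nqo1, Srxn1 and Sod2 lie above 0, and Mt2 has its slide values far apart at 0.56 and 1.85.

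The rest of the antioxidant and metal-handling machinery was read from 8 lists of 83 further genes, each by its brightest tested probe. Of these, 74 were tested. EXO-Post Palm gave the higher signal for 36 and the lower for 38, the median log2 difference was -0.06, and 0 passed an adjusted p of 0.05 in limma. At an unadjusted p of 0.05, 14 genes or 18.9% were counted, 6 higher and 8 lower, beside 10.0% of all tested probes. That count was 8 without EXO-Post Palm replicate 3 and 9 on leaving out EXO-Post BSA replicate 1, and it was 9 with slide as a fixed block, 9 with no filter, 7 with scaling to the median and 6 with the replicate block. The signs in these lists were thus about evenly divided, where 9 of the 11 member probes were positive; the lists and the members were not tested against each other.

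Among 11 regulators of the NRF2 pathway 7 were higher and 4 lower, with a median of 0.15. Maff, a small Maf protein that pairs with NRF2, had the highest difference at 0.87 (SE 0.19, adjusted p 0.136 in limma), and Keap1, the NRF2 inhibitor, the lowest at -0.80 (adjusted p 0.622). The Keap1 value rested on EXO-Post Palm replicate 3 at -1.02, with the other 2 EXO-Post Palm arrays at 0.73 and 1.12 and EXO-Post BSA at 0.72 to 1.46. Nfe2l2, which encodes NRF2 and was named after its value was seen, was at 0.20 (adjusted p 0.821), with no value from EXO-Post Palm replicate 1.

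Of 20 genes of glutathione synthesis, recycling and transfer 17 were tested, 8 higher and 9 lower with a median of -0.12. Gss, the glutathione synthetase that acts after the Gclc and Gclm enzyme, was at 0.67 (SE 0.29, adjusted p 0.486 in limma), and the glutathione transferase Gsta1 at -0.82 (SE 0.18, adjusted p 0.134). Among 14 thioredoxins, glutaredoxins and peroxiredoxins, 6 higher and 8 lower around a median of -0.13, the ends were Glrx, a glutaredoxin, at 0.77 (adjusted p 0.377) and Prdx2, a peroxiredoxin, at -0.50 (adjusted p 0.625). Superoxide and peroxide removal beyond Sod2 and Gpx1 had 7 of 8 genes tested, 4 higher and 3 lower. The cytosolic superoxide dismutase Sod1 stood at 0.46 (adjusted p 0.686). The Sod1 value rested largely on EXO-Post BSA replicate 4 at 4.10, with the other EXO-Post BSA arrays at 5.04 to 5.37 and EXO-Post Palm at 5.30 to 5.68. Catalase, Cat, was at -0.94 (SE 0.21, adjusted p 0.133 in limma). On this probe Cat read 1.12, 0.77, 0.87 and 0.92 with EXO-Post BSA and -0.27, 0.02 and 0.20 with EXO-Post Palm. Its groups did not overlap there, in the direction opposite to Sod2. A second tested Cat probe gave a smaller difference in the same direction, -0.41.

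Haem and iron handling, the list around Hmox1, had 3 genes higher and 5 lower with a median of -0.11. Fech, which inserts iron into protoporphyrin to form haem, was highest at 0.26 (adjusted p 0.745 in limma), and Slc40a1, the iron exporter ferroportin, lowest at -1.10 (SE 0.24, adjusted p 0.124). Slc40a1 read 0.04, 0.55, 0.48 and 0.46 with EXO-Post BSA and -0.89, -0.34 and -0.92 with EXO-Post Palm. All EXO-Post Palm arrays were therefore below all EXO-Post BSA arrays, while both Hmox1 probes were at small positive differences. The metal response list around Mt1 and Mt2 had 7 of 8 genes tested, 3 higher and 4 lower with a median of -0.14. Its highest gene was the third metallothionein, Mt3, at 0.63 (SE 0.23, adjusted p 0.407), and its lowest was the metal-sensing transcription factor Mtf1 at -0.40 (adjusted p 0.656).

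The 6 genes that supply NADPH, which glutathione and thioredoxin reductases consume, were 3 higher and 3 lower with a median of 0.00. Taldo1 of the pentose phosphate pathway was at 0.49 (adjusted p 0.621 in limma), with no value from EXO-Post Palm replicate 2. The isocitrate dehydrogenase Idh1 was at -1.58 (adjusted p 0.687). The Idh1 value rested on EXO-Post Palm replicate 2, at -6.04 beside -0.58 and -0.99 in its group and -1.64 to -0.56 in EXO-Post BSA, and its spot was not well above background on that array, so the size of the difference and the place of Idh1 as the lowest gene are not measured values. Of 8 NADPH oxidase genes, which make superoxide or hydrogen peroxide, 4 were bright enough to test. Nox1 was at 1.31 (SE 0.44, adjusted p 0.367) and Rac1 at -0.47 (adjusted p 0.495), with a second tested Rac1 probe at -0.15. Nox1 passed without EXO-Post BSA replicate 2, at 1.75 and an adjusted p of 0.0292 in limma. It was the single gene of these lists to pass with an array left out. Its spot was not well above background on EXO-Post BSA replicate 3, at -4.24, so the size of its difference is not a measured value. The array left out, at -2.22, was the EXO-Post BSA value within the EXO-Post Palm range of -2.38 to -2.11. Without that array the probe met the filter through the EXO-Post Palm group alone, so this pass only describes the probe.

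**Figure D3:**
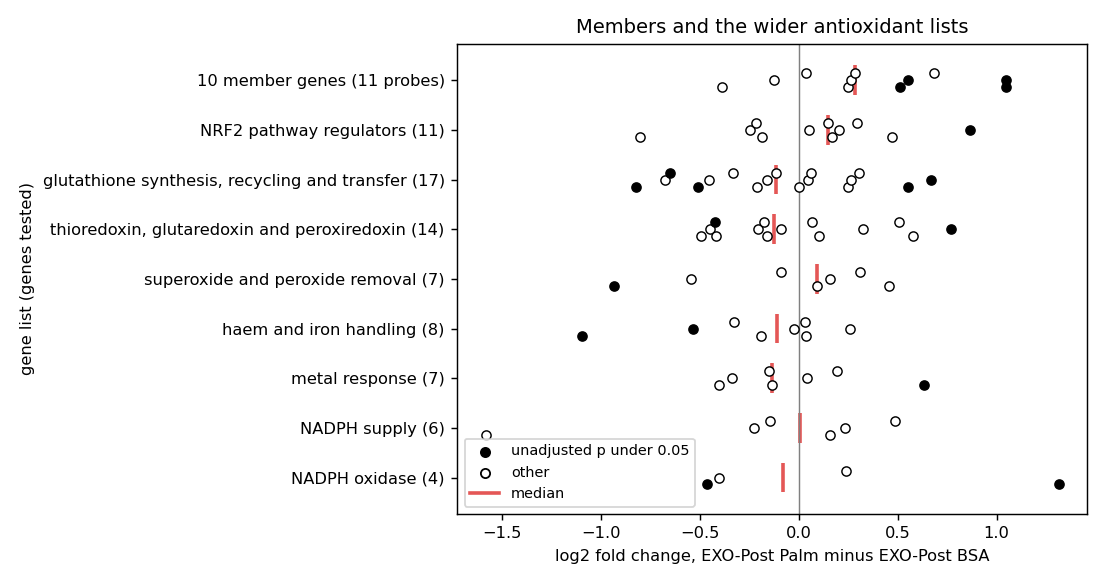
Log2 fold change, EXO-Post Palm minus EXO-Post BSA (x axis), of the member probes (top row) and of the genes tested in each of 8 wider lists (y axis, number tested in brackets). Each point is 1 probe, filled where the unadjusted limma p was under 0.05, and the red bar is the median. The members have a median of 0.28, and the list medians lie between -0.14 and 0.15.

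Over the 20 alternatives, 13 of processing or model and 7 with an array left out, the difference kept its sign for 9 of the 11 member probes and changed it in some for Txnrd1 and Gclm. Srxn1 ran from 0.42 to 0.70, Sod2 from 0.17 to 0.63, and Mt1 from 0.37 to 0.94. Mt2 ran from 0.71 to 1.45, its low end without EXO-Post Palm replicate 3 and its high end in the authors' processed values. Hmox1 stayed between 0.15 and 0.47 on its brighter probe and between 0.16 and 0.35 on the other, Gpx1 between 0.03 and 0.55, and Gclc between -0.85 and -0.17.

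**Figure D4:**
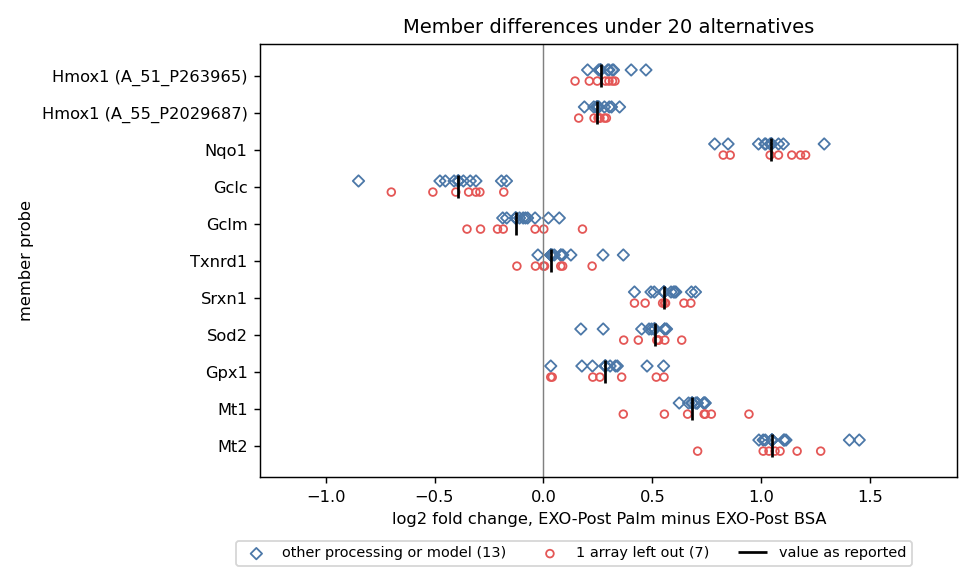
Log2 fold change of each member probe (y axis) under 20 alternatives (x axis). Blue diamonds are 13 other ways to process or model the arrays, red circles the 7 fits with 1 array left out, and the black bar the value as reported. Mt2 spreads from 0.71 to 1.45 and Gclm from -0.35 to 0.18, across 0.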

How the data were processed

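RNA (0.1 µg) of C2C12 recipient cells was labelled with Cy3 and hybridised to 7 1-colour Agilent mouse arrays. The deposited scanner files hold processed signal intensities (gProcessedSignal), already background-subtracted by Agilent Feature Extraction; per the file headers its version was 10.7.3.1 on 6 arrays and 11.5.1.1 on EXO-Post BSA replicate 3, and the submitters' processing notes name 9.1. The authors also deposited processed log2 values, used as an alternative; their background correction and normalisation are not given in the sources used here. Probe coordinates are mm9, as the files give them.

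Uneven and outlier spots were left out, signals were set on a log2 scale minus the array's 75th percentile over 43020 non-control spots, and spots of a probe were averaged. Probes entered the test where either group had at least 75% of its arrays well above background (21589 of 39429). Groups were compared in limma 3.58.1 (R 4.3.3), lmFit and eBayes, two-sided, with Benjamini-Hochberg adjustment over all tested probes, and tested first on simulated data. There, 7 of 100 probes changed by 1 log2 unit and 81 of 100 changed by 2 passed an adjusted p of 0.05, with 5 false calls. Alternatives covered scaling, background correction, the filter, slide, replicate block, array weights, the variance prior, the methods' t-test and each array left out. Members and lists were chosen with earlier results of these data known. Named were all members, any other listed gene past an adjusted p of 0.05, the highest and lowest gene of each wider list, and Nfe2l2. Marker lists were named as groups, with 2 myoblast markers named because they were too dim. Within the wider lists, a gene was read by the tested probe with the highest mean over 7 arrays.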

Additional observations from a re-analysis of the deposited data

How the results depend on the processing

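Of 220 values of member probes under alternatives, 212 kept their direction and side of the threshold, 7 reversed and 1 newly passed. Directions were fixed in advance under the t-test, trended and robust eBayes and the changes of filter, which leave the difference as it was. The replicate block repeats the differences of the fit without EXO-Post BSA replicate 4. The count of 212 therefore does not measure how stable the directions are. Mt2 passed with normexp on median signals, the count of member probes that passed then being 1; this setting was chosen after seeing the data, because 1 file has no mean signal and the planned correction of mean signals was not run. Reversed were Txnrd1 at -0.025 under median scaling, and Gclm at 0.073 with normexp and 0.023 with slide as a fixed block. With 1 array left out Txnrd1 ran from -0.12 to 0.22, negative without the third array of either group, and Gclm from -0.35 to 0.18, positive without the second array of either group. The cause was not tested.

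Of all tested probes, 115 passed, against 181 with slide as a random block, 173 with trended and robust eBayes, and 0 with no filter (1900 at an unadjusted p of 0.05) or by the methods' t-test after Benjamini-Hochberg (2108 unadjusted; 4 member probes). With 1 array left out the count ran from 4 to 228. It was 63, 64, 61 and 69 without EXO-Post BSA replicates 1 to 4, and 7, 228 and 4 without EXO-Post Palm replicates 1 to 3. The member count stayed at 0 and the wider lists gave 0 to 1.

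The sample titles carry other numbers than the replicate numbers used here, none shared between the groups, so the titles give no pairing. Same-numbered arrays deviated together with correlations of 0.12, -0.15 and -0.15, and the numbers were not taken to pair samples. The 3 pairs that shared a slide correlated at 0.12, 0.31 and 0.18. With the replicate block 0 probes passed (1933 at an unadjusted p of 0.05), 3 of them members at that unadjusted level.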
